A study of Mus musculus with 6 samples.

Results

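Cxcl1, Cxcl2, Cxcl3 and Cxcl5 are the mouse CXC chemokines best known for attracting neutrophils, and their mRNA levels were followed here in cultures of enteric glial cells (EGCs), which surround neurons within the wall of the intestine. The members were chosen by gene symbol, which gave 4 of the 46603 gene identifiers in the deposited counts, and all 4 were among the 15226 genes that passed the count filter. Poly(A) RNA had been sequenced from 6 EGC cultures derived from neurospheres, which are balls of neural progenitor cells that grow in suspension, and the neurospheres came from the gut of C57BL/6J mouse embryos (E14.5). The control group held 3 cultures with no treatment, and the LPS group held 3 cultures that received lipopolysaccharide (LPS, a component of the bacterial cell wall) at 100 ng/ml for 12 h. The study asked which EGC factors could act on monocytes and macrophages (Mφs). The labels gave a replicate number within each group but not whether the cultures were separate preparations, so p-values measure the spread between these samples, which may be technical.

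These chemokines are small secreted proteins that carry the residues glutamate, leucine and arginine (ELR) just before the CXC cysteines, and they act on the receptor CXCR2, which neutrophils carry at high level. Their genes are classical targets of NF-κB downstream of the LPS receptor TLR4 and of the receptors for IL-1, TNF and IL-17. The mRNAs are short-lived at rest, because AU-rich elements in their 3′ untranslated regions (UTRs) recruit decay proteins.

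The ELR codons define this class of CXC ligands, and they are shown with 3 codons on each side to let the genes be compared. They were read 5′ to 3′ from the protein-coding transcript of each gene in GENCODE M21, and the capitals mark the 6 codons for E, L, R, C, any residue and C.
Cxcl1: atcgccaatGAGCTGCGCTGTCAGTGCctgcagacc
Cxcl2: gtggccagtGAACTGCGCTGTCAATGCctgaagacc
Cxcl3: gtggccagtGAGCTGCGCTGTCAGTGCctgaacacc
Cxcl5: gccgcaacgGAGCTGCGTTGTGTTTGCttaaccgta

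Cxcl2 and Cxcl3 shared 33 of these 36 bases, whereas Cxcl5 shared 19 of 36 with Cxcl1. Cxcl2 and Cxcl3 were also the closest pair, and Cxcl5 the most distant member, over the whole coding sequence. Identity was 89.7% between Cxcl2 and Cxcl3 and 75.7% between Cxcl1 and Cxcl2, but only 47.5% to 48.9% between Cxcl5 and the other members. The 6 codons were found in 6 of 15 CXC ligand genes searched, and the other two were Ppbp and Cxcl15, which lie in the same gene cluster. Because of the likeness of Cxcl2 and Cxcl3, 5.75% of the 50-base words of the Cxcl2 transcript and 6.31% of those of Cxcl3 occurred in the other, so reads could be split or lost between them. Cxcl1 shared no such word with another gene, and 3.08% of the Cxcl5 words occurred in unrelated transcripts.

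Promoters were compared because all 4 genes moved together. The RefSeq promoter table of GRCm38.p6, which spans 250 bases before to 50 bases after each start, held Cxcl1, Cxcl2 and Cxcl3, and Cxcl5 was not matched. The 3 promoters shared 2 words of 10 bases or more. One was GGGAATTTCCC, which includes a consensus site of NF-κB. The other, CTCCAGACTCCAG, began 33, 13 and 37 bases after the start of Cxcl1, Cxcl2 and Cxcl3. The stretches below begin 12 bases before the NF-κB word and end 12 bases after ATAAAAG, the letters of a TATA box, and the capitals mark these motifs. All lie on the plus strand of GRCm38, at chr5:90891162-90891229 for Cxcl1, chr5:90903790-90903860 for Cxcl2 and chr5:90786016-90786090 for Cxcl3.
Cxcl1: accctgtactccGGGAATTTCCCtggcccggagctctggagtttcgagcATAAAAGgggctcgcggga
Cxcl2: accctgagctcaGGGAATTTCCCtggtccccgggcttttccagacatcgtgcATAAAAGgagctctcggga
Cxcl3: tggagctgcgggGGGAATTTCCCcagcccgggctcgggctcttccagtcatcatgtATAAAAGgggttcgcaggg

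GGGAATTTCCC, searched on both strands, occurred in 14 of 32851 promoters of this length (0.0426%), and CTCCAGACTCCAG in 4 (0.0122%), these 3 included by the way the words were found. ATAAAAG, searched on the strand of the gene, occurred in 3.38% of promoters. The gap between the NF-κB word and ATAAAAG was 26 bases in Cxcl1, 29 in Cxcl2 and 33 in Cxcl3. The AP-1 letters TGACTCA (5.20% of promoters, both strands) and the C/EBP letters TTGCNNAA (10.8%, both strands) had no match in the 3 windows. None of these motifs overlapped another in the stretches shown. These are matches of letters and not measured binding.

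Total counts ranged from 18775316 to 23664312 per library, and 3 counts was set as the detection floor. This equals 0.124 to 0.167 CPM, which are counts divided by the TMM-corrected library size in units of 1e6. Intervals and floors cover counting error only, as PCR copies of a molecule were not told apart. The glial markers Sox10, Erbb3 and Cdh19 were above the floor in each library. The cultures also held transcripts of other cells. The 8 mesenchymal markers summed to between 15124 and 16295 CPM, and 2 of them, Dcn and Pdgfra, were called higher upon LPS (9.09% of all genes were). Without control replicate 2, 0 of these 8 were called higher, beside 2.44% of all genes. With the replicate number as a block in the fit, 2 were called higher, beside 15.4% of all genes, and 2 lower, Lum and Thy1. The 8 smooth muscle markers summed to 2460.2 to 2765 CPM in control and 739 to 1052 CPM in LPS, with 7 called lower. The 5 mesothelial markers summed to 82.4 to 121.7 CPM and 37.3 to 63.1 CPM, with 2 called lower, beside 6.71% of all genes. Without control replicate 2, 4 smooth muscle and 1 mesothelial marker were called lower, and with the block 8 and 5. The share of all genes called lower was not determined for these alternatives. Their part in the results below was not tested. The 12 macrophage markers summed to 4330, 5654 and 13490 CPM in control replicates 1, 2 and 3. Upon LPS they summed to 4115, 5338 and 20850 CPM in the same order, so replicate 3 stood apart in both groups. Of the 12, 1 was called higher, Adgre1, and 0 lower, and without control replicate 2 there were 0 calls. With the block, 3 were called higher, beside 15.4% of all genes, and 3 lower. Those lower were Mrc1, Cx3cr1 and Cd68, with log2 fold changes of -3.92, -3.16 and -0.86. In such bulk samples, fewer cells of a type and less RNA per cell cannot be told apart, and the cells that made a transcript are not known.

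At rest, the family was close to silent. In control replicates 1, 2 and 3, the 4 genes together received 138, 97 and 28 counts. Upon LPS they received 53291, 55224 and 5526 counts. This was 0.255% of all counts in LPS replicate 1 (95% Wilson interval 0.253% to 0.257%), 0.294% in replicate 2 (0.292% to 0.297%) and 0.0265% in replicate 3 (0.0258% to 0.0272%). The summed level per kilobase of transcript was 4.37, 3.34 and 0.864 CPM per kb in control replicates 1, 2 and 3, and 2022, 2369 and 224.2 CPM per kb in LPS replicates 1, 2 and 3. The groups did not overlap. The mean log2 level was 8.78 higher in LPS (exact permutation test, two-sided, p = 0.1, n = 3 each), which is the smallest p that 3 against 3 libraries allow.

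All 4 members were called higher by the edgeR quasi-likelihood test (adjusted p under 0.05 over all genes tested), in a comparison that called 9.09% of genes higher and 6.71% lower. No LPS library overlapped a control library for any of the 4 members, as was the case, in this direction, for 19.3% of genes tested. Their fitted log2 fold changes, between 8.81 and 10.84, placed them among the 40 genes (0.263% of those tested) with a fitted log2 fold change of 8 or more, where the median of all genes was -0.02.

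Cxcl5 was the most abundant member. Its gene (ENSMUSG00000029371) lies at chr5:90759360-90761624 on the plus strand of GRCm38 and has 4 exons. It was at 4.20, 2.74 and 0.827 CPM in control replicates 1, 2 and 3, and at 1685, 1914 and 173.7 CPM in LPS replicates 1, 2 and 3. Replicate 3 was thus the lowest culture of both groups, yet the lowest LPS culture lay 41.4-fold above the highest control. The log2 fold change was 8.92 (SE 1.27, edgeR adjusted p = 0.0105), from a mean of 2.59 ± 1.69 to 1258 ± 945.6 CPM (SD, n = 3 each). Per kilobase of transcript, Cxcl5 ranked 30th, 25th and 649th among the 15226 tested genes in LPS replicates 1, 2 and 3.

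Cxcl1, also known as KC, is the mouse chemokine most often measured as a sign of neutrophil recruitment. Its gene (ENSMUSG00000029380) lies at chr5:90891241-90893115. It was at 1.44, 1.37 and 0.207 CPM in control replicates 1, 2 and 3, and at 630.1, 673.2 and 55.5 CPM in LPS replicates 1, 2 and 3. The profile repeated that of Cxcl5, with replicate 3 lowest in both groups and no overlap between groups. The mean rose from 1.01 ± 0.69 to 452.9 ± 344.8 CPM (SD, n = 3 each), which on the log2 scale was an increase of 8.81 (SE 1.32, edgeR adjusted p = 0.0121).

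Cxcl2, also known as MIP-2, is a CXCR2 ligand that macrophages make in large amounts. Its gene (ENSMUSG00000058427) lies at chr5:90903871-90905938, next to Cxcl1. It received 5, 4 and 0 counts in control replicates 1, 2 and 3, which put it at or just above the floor, and 5552, 7553 and 779 counts in LPS replicates 1, 2 and 3. In CPM this was 0.212, 0.177 and 0 in control and 274.4, 420.9 and 40.8 in LPS. Here too replicate 3 was the lowest LPS library, and it exceeded the highest control 192-fold. Its fitted log2 fold change was 10.84 (SE 1.34, edgeR adjusted p = 0.00667), a value that rests on 5, 4 and 0 control counts and was 10.11 with a prior count of 2.

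Cxcl3 encodes another CXCR2 ligand and is the member closest to Cxcl2 in sequence. Its gene (ENSMUSG00000029379) lies at chr5:90786103-90789600. It was at the floor in every control library, with 0, 0 and 3 counts in replicates 1, 2 and 3, and had 893, 1246 and 367 counts in LPS replicates 1, 2 and 3. These correspond to 44.1, 69.4 and 19.2 CPM in LPS. Against a floor of 3 counts in each control library, averaged over the group, Cxcl3 was at least 345.8-fold higher in LPS. The edgeR adjusted p was 0.00275, and its fitted log2 fold change of 9.84 (SE 0.94) depends on the prior count because the controls were at the floor. Cxcl2 and Cxcl3 can therefore not be ranked by fold, and without control replicate 3 the fitted values were 10.27 for Cxcl2 and 12.85 for Cxcl3.

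**Figure D1:**
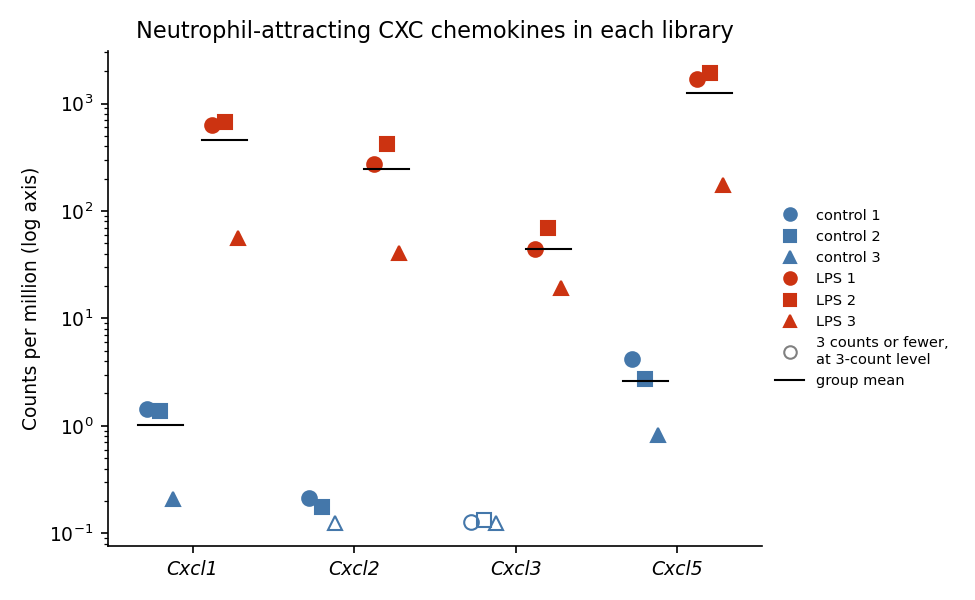
Level of each member in each library, in CPM on a log axis, with controls in blue and LPS in red. Marker shapes give the replicate number, open markers stand for 3 counts or fewer drawn at the level of 3 counts, and black lines are group means, left out where a library was at or under that level. All LPS libraries lie above all controls, and LPS replicate 3 is the lowest LPS library for each gene.

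The LPS cultures differed from each other by up to 12.1-fold. LPS replicates 1 and 2 averaged 11.7 times the level of replicate 3 for Cxcl1, 10.4 times for Cxcl5 and 8.53 times for Cxcl2, but 2.96 times for Cxcl3. For Cxcl1, Cxcl2 and Cxcl5, LPS replicate 3 was more than 3-fold below both other LPS libraries, which was the case for 2.78% of all genes and for 5.42% of those called higher. Replicate 3 was also lowest among the controls for Cxcl1, Cxcl2 and Cxcl5, but not for Cxcl3, whose 3 control counts all fell in it. Control replicates 1 and 2 averaged 6.81 times the level of control replicate 3 for Cxcl1 and 4.20 times for Cxcl5. Being lowest in replicate 3 of both groups was common, at 29.0% of genes tested. Replicate 3 was also where the macrophage marker sum was highest in both groups, at 13490 and 20850 CPM. So were the mesothelial (121.7 and 63.1 CPM), endothelial (17.8 and 21.1 CPM) and neutrophil (19.5 and 82.7 CPM) sums. The neuronal sum was lowest there, at 243.9 and 258.9 CPM. So were the smooth muscle sum, at 2460.2 and 739 CPM, and the mast cell sum, at 18.5 and 10.0 CPM. The part of any of these in the chemokine levels was not tested.

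Within replicate numbers, the folds of Cxcl1 and Cxcl5 varied less than their levels in LPS. Cxcl1 was 437-, 490.5- and 269-fold higher in LPS than in the control of the same number, for numbers 1, 2 and 3. Cxcl5 was 402-, 697- and 210.2-fold higher. Whereas the levels of Cxcl1 in LPS spanned 12.1-fold, these folds all lay between 210.2 and 697. Cxcl2 was 1295- and 2377-fold higher for numbers 1 and 2 and at least 329-fold higher for number 3. Cxcl3 was at least 347-, 523- and 155-fold higher, each against 3 counts in the control. Whether the folds of Cxcl2 and Cxcl3 varied less than their levels cannot be told from such bounds.

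With the replicate number as a block in the edgeR fit, the log2 fold changes hardly moved and their standard errors fell. Cxcl1 had 8.77 (SE 0.14, edgeR adjusted p = 7.74e-05) and Cxcl2 had 10.81 (SE 0.20, edgeR adjusted p = 9.52e-05). Cxcl5 had 8.79 (SE 0.34, edgeR adjusted p = 0.000542) and Cxcl3 had 9.78 (SE 0.55, edgeR adjusted p = 0.00137). This fit called 15.4% of all genes higher.

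The calls of 3 members were lost in some fits with fewer libraries. Without control replicate 1, the edgeR adjusted p was 0.0632 for Cxcl1 and 0.0513 for Cxcl5. Without control replicate 2, it was 0.0743 for Cxcl1, 0.0531 for Cxcl2 and 0.0708 for Cxcl5. The share of all genes called higher fell too in these fits, to 3.03% and 2.44%. Cxcl3 was called in each of the 6 fits that left out a library, with edgeR adjusted p from 0.000636 to 0.0258. Under limma-voom, which called 8.21% of genes higher, Cxcl3 and Cxcl5 were called, and the adjusted p was 0.0918 for Cxcl1 and 0.116 for Cxcl2. Without LPS replicate 3, the library that stood apart, all 4 members were called, among 12.6% of genes called higher.

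**Figure D2:**
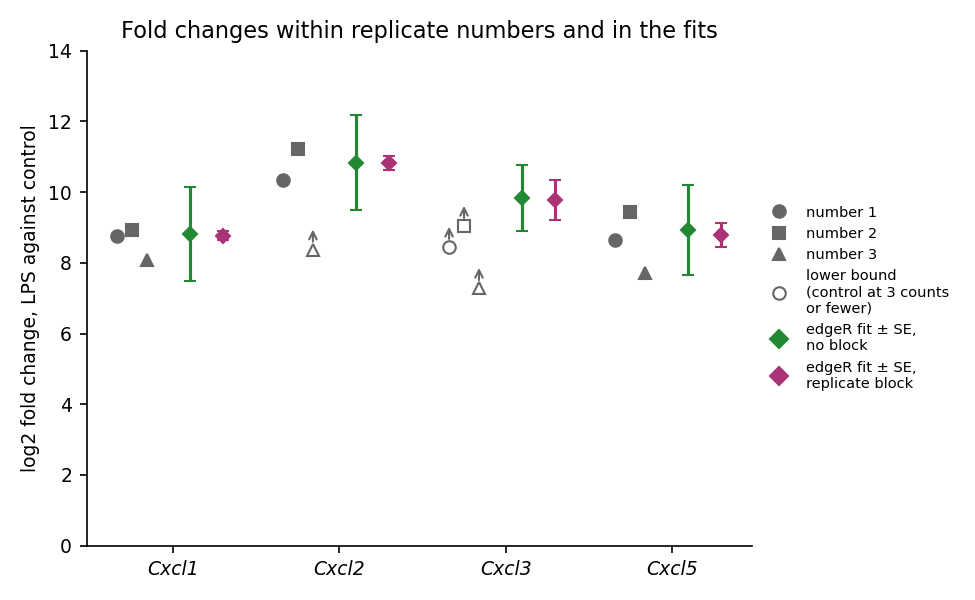
Log2 fold change of each member, LPS against control. Grey markers give the fold within a replicate number, open ones with an arrow being lower bounds where the control had 3 counts or fewer, and diamonds give the edgeR fold change with its SE (bars), in green without and in purple with the replicate block. The SE of Cxcl1 is 1.32 without the block and 0.14 with it.

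The make-up of the family was next compared within libraries, which does not depend on the scaling between them. Per kilobase of transcript, the order was Cxcl5, Cxcl1, Cxcl2 and Cxcl3 in each of the 3 LPS libraries. Their mean levels in LPS were 798.4 ± 600.4, 475.3 ± 361.8, 221.2 ± 172.9 and 43.6 ± 24.7 CPM per kb (SD, n = 3). The ranges over libraries overlapped between each pair of neighbours in this order. The shares of Cxcl5, Cxcl1 and Cxcl2 varied less between LPS libraries than their levels, and that of Cxcl3 did not. Cxcl5 made up 51.1 ± 1.87% of the summed level in LPS, Cxcl1 29.5 ± 3.37%, Cxcl2 14.9 ± 2.30% and Cxcl3 4.49 ± 3.43% (SD, n = 3). In control the shares were 58.0 ± 5.05% for Cxcl5, 34.3 ± 8.99% for Cxcl1, 3.05 ± 2.65% for Cxcl2 and 4.71 ± 8.16% for Cxcl3 (SD, n = 3), of which the last 2 rest on 0 to 5 counts a library.

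Cxcl2 made up a larger share in every LPS library than in any control, although 3 against 3 libraries could not take the ratios past the threshold. The log2 ratio of Cxcl1 to Cxcl2 counts was 2.65, 2.81 and 3.46 in the controls and 1.20, 0.68 and 0.45 in the LPS cultures (replicates 1, 2 and 3), a difference of -2.20 without overlap. The value of 3.46 is set by the added 0.5, as control replicate 3 had 0 counts of Cxcl2, and without that library the difference was -1.95. The log2 ratio of Cxcl2 to Cxcl5 was higher in LPS by 2.15, again without overlap and with the same limit, and by 1.69 without control replicate 3. For both, the exact permutation p was 0.1, the smallest possible, and 0.3 after adjustment over the 6 pairs. In contrast, the log2 ratio of Cxcl1 to Cxcl5 was -1.47 ± 0.46 in control and -1.52 ± 0.11 in LPS (SD, n = 3 each; exact permutation p = 0.9), so that a difference between these 2 genes was not detectable in 3 against 3 libraries. Ratios with Cxcl3 gave exact permutation p-values of 0.6 (Cxcl1), 1 (Cxcl2) and 0.5 (Cxcl5), with the control at the floor.

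Cxcl3 departed from the others in LPS replicate 3. It made up 1.68% of the members' counts in LPS replicate 1 (95% Wilson interval 1.57% to 1.79%), 2.26% in replicate 2 (2.14% to 2.38%) and 6.64% in replicate 3 (6.01% to 7.33%). These intervals do not overlap, but they cover counting error and not the variation between cultures.

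**Figure D3:**
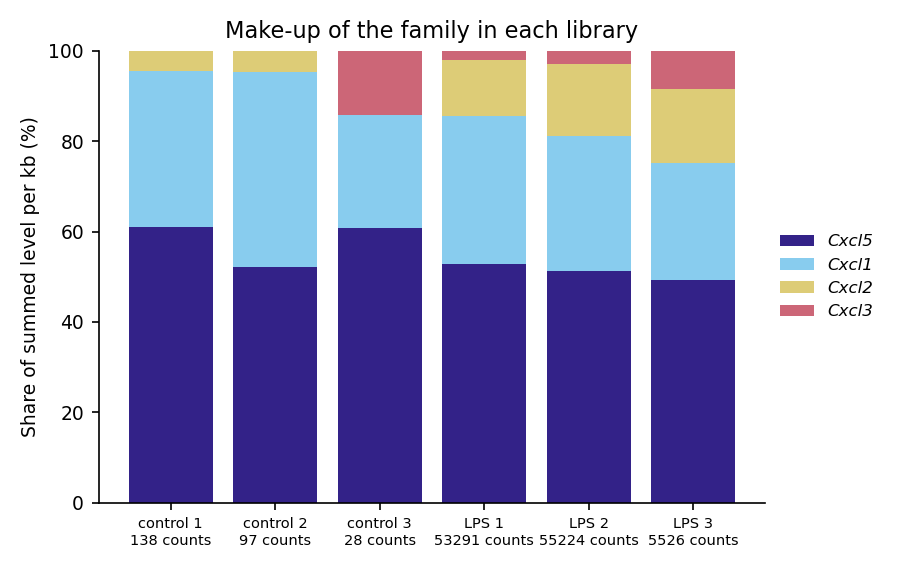
Share of each member in the summed level per kilobase of the family, in percent, in each library, with the members' counts under each bar. Cxcl5 and Cxcl1 fill most of every bar, and the share of Cxcl2 averages 3.05% in control and 14.9% in LPS.

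The genes lie together on chromosome 5, on the plus strand within 146579 bases, in the order Cxcl5, Cxcl3, Cxcl1 and Cxcl2. No other annotated gene overlaps them. The other CXC genes of the cluster, among them the platelet chemokines Pf4 and Ppbp, were not called. Pf4 had 0.50 on the log2 scale (SE 1.19, edgeR adjusted p = 0.816), and its sign changed when single libraries were left out. Ppbp, with 1, 8 and 7 counts in control and 9, 12 and 7 in LPS, and Cxcl15, with 2 counts or fewer in each library, were too low to test. Of the 11 other genes tested within 500 kb, 3 were called higher and 0 lower, where 9.09% and 6.71% of all genes were. These were Ereg and Areg, which encode the growth factors epiregulin and amphiregulin, and Mthfd2l, a mitochondrial folate enzyme. Ereg rose from 18.4 ± 4.20 to 129.9 ± 3.34 CPM upon LPS (SD, n = 3 each), by 2.82 on the log2 scale (SE 0.18, edgeR adjusted p = 0.000803). Areg had a log2 fold change of 2.36 (edgeR adjusted p = 0.0215) and Mthfd2l of 1.00 (edgeR adjusted p = 0.0272), both far below those of the chemokines. Both calls were lost in fits that left out 1 library, Areg without control replicate 1 or LPS replicate 1 or 2 and Mthfd2l without any 1 of the libraries other than LPS replicate 3, with edgeR adjusted p up to 0.0954 and 0.114.

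**Figure D4:**
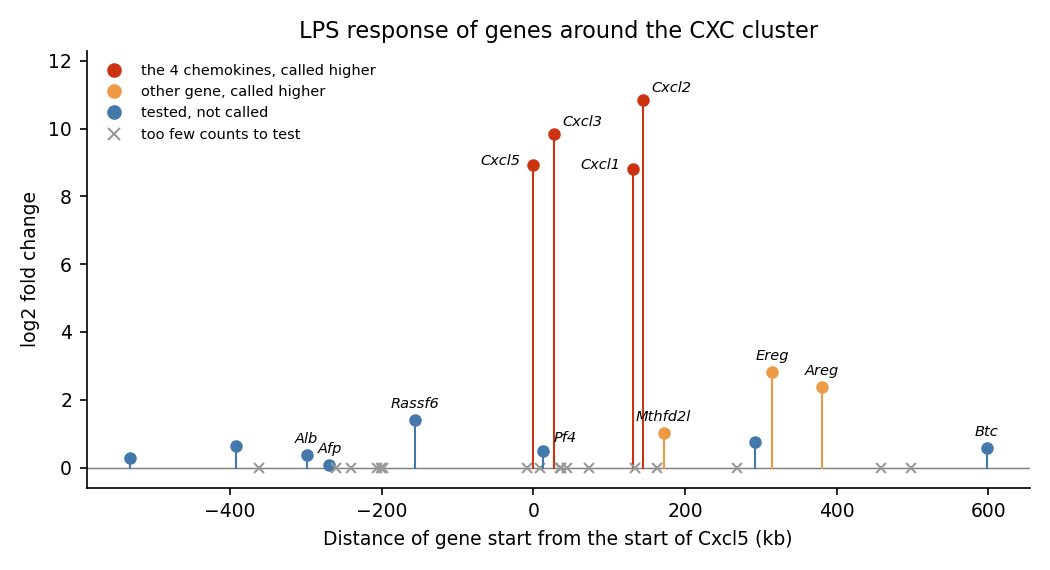
Log2 fold change of each gene within 500 kb of a member (LPS against control, edgeR), by the distance of its start from the start of Cxcl5 in kb. The 4 chemokines (red) stand between 8.81 and 10.84, Ereg, Areg and Mthfd2l (orange) between 1.00 and 2.82, and crosses mark genes with too few counts to test.

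The receptors of these ligands were then examined. Cxcr2, the main receptor, had at most 1 count in any library and Cxcr1 at most 2, so both were at the floor throughout. Ackr1, a decoy that binds chemokines without signalling, went from 1.65 ± 0.11 CPM to 2.52 ± 0.57 CPM upon LPS (SD, n = 3 each) and did not pass the test (edgeR adjusted p = 0.137). Most defining neutrophil genes were at the floor as well. Of 14 neutrophil markers, 9 were at the floor in every library, among them Ly6g, Mpo, Elane, Ngp, Ltf and S100a9. The summed level of the 14 was 6.06 to 19.5 CPM in control and 41.7 to 82.7 CPM in LPS, of which Csf3r, which macrophages share, reached 71.4 CPM in LPS replicate 3. With the replicate block, 3 of the markers were called higher, beside 15.4% of all genes, Camp at 2.56 (edgeR adjusted p = 0.00803), Csf3r at 2.58 (edgeR adjusted p = 0.000719) and S100a8. Without it, where 9.09% of all genes were called higher, S100a8 was the 1 such marker, at 0.362 ± 0.402 CPM without and 10.8 ± 5.93 CPM with LPS (SD, n = 3 each), with a log2 fold change of 4.87 (edgeR adjusted p = 0.0205). Without control replicate 1 or 2 or LPS replicate 1 or 2, its edgeR adjusted p lay between 0.0677 and 0.0957.

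Upstream of the chemokines, 9 of 22 receptors, adaptors and antagonists of LPS, IL-1, TNF and IL-17 signalling were called higher and 0 lower, beside 9.09% and 6.71% of all genes, with a median log2 fold change of 0.86. The largest was Lbp, which delivers LPS to its receptor, at 3.81 (SE 0.43, edgeR adjusted p = 0.00505). Il1rn, the IL-1 receptor antagonist, had 3.41 (edgeR adjusted p = 0.0212), and unlike the chemokines it was highest in LPS replicate 3, with the other LPS libraries at 0.284 times its level. Il1rap and Il1r1, the chains of the IL-1 receptor, increased by 2.14 and 1.10 in log2 (edgeR adjusted p = 0.000544 and 0.00542). Irak4, the kinase of this pathway, had the smallest value, at -0.18 (edgeR adjusted p = 0.636). The count for this list was 14 higher with the replicate block (15.4% of all genes), 3 without control replicate 1 or control replicate 2 (3.03% and 2.44% of all genes) and 5 without LPS replicate 2 (3.36% of all genes). Il1rn was not called without control replicate 1 or 2 (edgeR adjusted p = 0.0915 and 0.106).

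Most regulators of NF-κB and C/EBP factors were higher in LPS. Here 14 of 17 were called higher and 0 lower, beside 9.09% and 6.71% of all genes, with a median of 1.86. Nfkbia, which encodes IκBα, rose from 20.3 ± 1.55 to 225.2 ± 35.6 CPM (SD, n = 3 each), by 3.47 on the log2 scale (SE 0.15, edgeR adjusted p = 0.000217). Tnfaip3, the deubiquitinase A20, had 2.81 (edgeR adjusted p = 0.0146, and up to 0.0856 without control replicate 1 or 2 or LPS replicate 1 or 2). Nfkbiz, a nuclear cofactor of NF-κB at a subset of its targets, rose by 2.52 (edgeR adjusted p = 0.00124). The kinase subunits Chuk and Ikbkg were not called, at 0.26 and 0.28, although Chuk was with the replicate block (edgeR adjusted p = 0.0329) and Ikbkg without LPS replicate 3 (edgeR adjusted p = 0.0456). LPS replicates 1 and 2 averaged 1.28 times the level of replicate 3 for Nfkbia and 2.55 times for Tnfaip3. Among the members this ratio ran from 2.96 for Cxcl3 to 11.7 for Cxcl1.

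AU-rich elements were counted because they mark mRNAs that decay fast. The 3′ UTRs of Cxcl1, Cxcl2, Cxcl3 and Cxcl5 held 7, 11, 5 and 5 ATTTA letters on the gene strand, or 11.8, 14.99, 7.75 and 4.50 per kb of UTR. The median over 13148 genes was 1.38 per kb, and 99.6%, 99.8%, 98.3% and 91.3% of these genes had a lower density than the 4 members, in this order. The longer letters TATTTAT, which contain ATTTA, occurred 6, 7, 2 and 1 times, and 31.2% of genes held any. Of 12 regulators of the decay of such mRNAs, 3 were called higher and 0 lower, beside 9.09% and 6.71% of all genes, with a median of 0.10. With library size alone as scaling, which moved the median of all genes from -0.02 to -0.18, 3 were called lower, beside 13.5% of all genes. Zc3h12a, which encodes the ribonuclease Regnase-1, rose from 9.15 ± 0.44 to 134.3 ± 36.5 CPM (SD, n = 3 each), by 3.87 on the log2 scale (SE 0.24, edgeR adjusted p = 0.000634). Its relative Zc3h12c rose by 1.29 (edgeR adjusted p = 0.00239). Arid5a, a protein that protects inflammatory mRNAs from decay, had 1.40 (edgeR adjusted p = 0.0352), a call that was kept only without control replicate 3 when single libraries were left out. Tia1 and Zfp36l2 had the lowest values, -0.21 and -0.20, and were not called, and their calls as lower with library size alone, at -0.37 and -0.35 (edgeR adjusted p = 0.0385 and 0.0437), came with that shift of all genes.

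Most other factors known for the recruitment, adhesion or survival of neutrophils also rose. Of 20 listed, 18 were tested, of which 16 were called higher and 0 lower, beside 9.09% and 6.71% of all genes, with a median log2 fold change of 5.20. Without control replicate 2, 12 were called higher, beside 2.44% of all genes. Il1b was at the floor in all controls, with 0, 0 and 0.124 CPM, and at 399.5, 499.8 and 321.9 CPM in LPS replicates 1, 2 and 3, at least 3181-fold higher. Csf3, the growth factor G-CSF that drives neutrophil production, was at least 250.5-fold higher, at 32.5, 43.4 and 20.4 CPM in LPS. Saa3, an acute phase protein, rose from 16.3 ± 10.9 to 12049 ± 1311 CPM (SD, n = 3 each), by 9.53 on the log2 scale (edgeR adjusted p = 0.00254). Neither Il1b nor Saa3 shared the low level of the CXC chemokines in LPS replicate 3, as LPS replicates 1 and 2 averaged 1.40 and 1.14 times that library.

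Csf2, the growth factor GM-CSF, was the most uneven of these factors, at 23.2, 27.1 and 0.576 CPM in LPS replicates 1, 2 and 3. It was called with all libraries (edgeR adjusted p = 0.0314) but, of the 6 fits that left out a library, only the one without LPS replicate 3 kept this call. Lcn2, a siderophore-binding protein of neutrophil granules and of inflamed tissues, was at 1645, 1643 and 264.5 CPM in LPS, and LPS replicates 1 and 2 averaged 6.21 times replicate 3. The smallest change called was that of Hif1a, at 1.60 (edgeR adjusted p = 0.00509). Mmp8, a collagenase of neutrophil granules, had -0.04 (edgeR adjusted p = 0.977), and Vcam1 had 2.25 (edgeR adjusted p = 0.0555, and 0.00232 with the replicate block). Il17a had no count.

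The interferon-induced genes Cxcl9, Cxcl10 and Cxcl11, of the family that attracts T cells through CXCR3, were compared as CXC genes of another type. GENCODE M21 lists Cxcl11 as a polymorphic pseudogene, and in C57BL/6 mice it makes no functional chemokine, so its values are transcript levels only. All 3 were called higher, beside 9.09% of all genes. Cxcl10 was at 1.44, 1.15 and 0.413 CPM in control and reached 837.8, 970.4 and 242.1 CPM upon LPS (log2 fold change 9.41, edgeR adjusted p = 0.00238). From controls at the floor, Cxcl11 was at least 57.5-fold higher and Cxcl9 at least 505.7-fold. LPS replicates 1 and 2 averaged 3.73 times replicate 3 for Cxcl10, 3.30 times for Cxcl9 and 1.07 times for Cxcl11, beside 2.96 times for Cxcl3 and 8.53 to 11.7 times for the other neutrophil-attracting members. Whether these ratios differ between genes was not tested, as each rests on 1 library against 2.

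**Figure D5:**
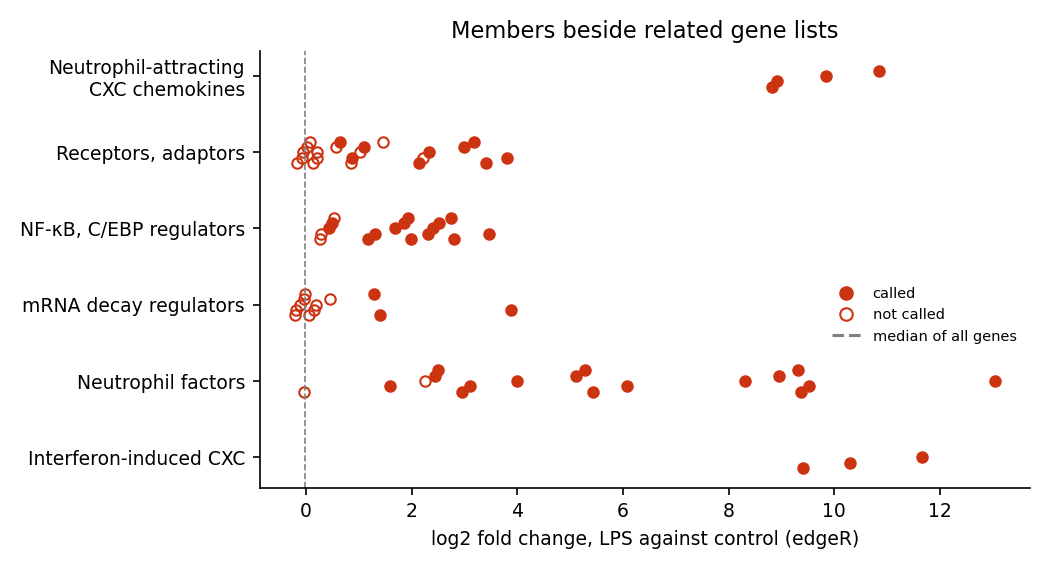
Log2 fold change (LPS against control, edgeR) of the 4 neutrophil-attracting chemokines and of the tested genes of 5 related lists, each point being 1 gene, filled where called at an adjusted p under 0.05. The dashed line is the median of all genes, at -0.02. The chemokines lie between 8.81 and 10.84, beside a median of 5.20 for the neutrophil factors, 1.86 for the NF-κB and C/EBP regulators and 0.10 for the mRNA decay regulators.

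Finally, the genes with the most similar profiles were listed for each member, by Pearson correlation of log2 CPM over the 6 libraries among 11832 genes whose mean reached 5 CPM in control or LPS. Correlations between the 4 members ran from 0.951 (Cxcl1 with Cxcl3) to 0.999 (Cxcl1 with Cxcl5). Cxcl1 was most like Ugcg, Pcid2 and St7, and Cxcl2 most like Tmem30a, Lcn2 and Rala. Cxcl3 was most like H2-M2, Vps37c and Kpna4, and Cxcl5 most like Wdyhv1, Cxcl1 and Mmp3. All 12 correlations were 0.9985 or higher, but between 60 and 123 genes per member exceeded 0.99, and the points share 1 split between control and LPS. The sizes of the changes differed widely. Ugcg, a glucosylceramide synthase, rose from 110.5 ± 10.6 to 207.8 ± 33.1 CPM (SD, n = 3 each), while Mmp3, the stromelysin matrix protease, went from 35.8 ± 13.3 to 3403 ± 2349 CPM (SD, n = 3 each), and LPS replicates 1 and 2 averaged 6.44 times replicate 3 for Mmp3 and 1.33 times for Ugcg. Both were called with all libraries, but the edgeR adjusted p of Ugcg was 0.0574 to 0.0708 without control replicate 1 or 2 or LPS replicate 1 or 2, and that of Mmp3 0.0526 and 0.0613 without control replicate 1 or 2.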

How the data were processed

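Raw read counts per gene, as deposited for 6 libraries, were the starting point. Per the labels and the study's methods, the authors prepared poly(A) libraries with the TruSeq Stranded mRNA kit, and the submitters' processing notes name cutadapt 1.15, Bowtie2 2.3.3.1, STAR 2.5.2b, SAMtools 1.5, featureCounts 1.5.3 and the build GRCm38 (mm10). The strand setting and the handling of reads with several alignments are not given in the sources used here, which bears on Cxcl2 and Cxcl3. Replicates were not pooled.

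Members, lists and tests were chosen with earlier results of these data known. Genes were filtered with filterByExpr of edgeR 4.0.16 (R 4.3.3; minimum count 10, minimum total 15), scaled with TMM factors (0.917 to 1.08), and tested by edgeR quasi-likelihood (F-test, two-sided, group as the single term), with Benjamini-Hochberg adjustment over 15226 genes. Calls required an adjusted p under 0.05. SE is the absolute log2 fold change divided by the square root of F. Lengths and coordinates came from GENCODE M21, with the protein-coding transcript as length. Member ratios used counts plus 0.5. The fit was checked on simulated counts. These had the same spread for every gene and no difference between replicates, so the check does not cover the uneven libraries seen here.

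Named were the members, the largest and smallest changes of each list, genes within 500 kb, and the 3 genes most like each member, with some further list members as examples chosen after their values were seen. Alternatives were other scalings (upper quartile, relative log expression, or the library size with no factor), filters, the edgeR exact test, DESeq2 1.42.0, limma-voom (limma 3.58.1), a prior count of 2, a replicate block and each library left out. Deviations of same-numbered libraries correlated across genes with r = 0.513, 0.334 and 0.613, and control 1 with LPS 2 and control 2 with LPS 1 with r = 0.419 and 0.323. Numbers were taken to pair the samples, from the data and not from the labels, but these values set replicate 3 apart from the others more than they tell numbers 1 and 2 apart. The series also had a table of all libraries whose counts were the same.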

Additional observations from a re-analysis of the deposited data

How the results depend on the processing

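Each of the 4 members was higher in LPS under every alternative in which it was tested. Fits that left out 1 library gave log2 fold changes of 8.34 to 9.34 for Cxcl1, 10.20 to 11.40 for Cxcl2, 9.32 to 12.85 for Cxcl3 and 8.49 to 9.48 for Cxcl5, and called between 1 and 4 members. Under limma-voom, 2 members were called, with Cxcl1 at 8.55 (adjusted p = 0.0918) and Cxcl2 at 10.73 (adjusted p = 0.116) not called. With at least 10 counts required in every library, 1 member, Cxcl5, was left to test and was called. With a prior count of 2, the fitted log2 fold change of Cxcl2 was 10.11 and that of Cxcl3 8.34. With the replicate block, that of Cxcl1 was 8.77, and all 4 members were called.

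Upper-quartile scaling and library size alone moved the median of all genes to -0.12 and -0.18. Without division by length, the shares in LPS were 21.7% for Cxcl1 and 62.1% for Cxcl5. With the union of annotated exons as length, an alternative chosen after seeing the data, they were 22.2% for Cxcl1, 11.8% for Cxcl2 and 64.0% for Cxcl5. The differences in log2 ratio changed sign between fits without 1 library, from -0.27 to 0.19 for Cxcl1 to Cxcl5 and from -1.21 to 1.93 for Cxcl2 to Cxcl3. So did the fold changes of Pf4, from -0.66 to 2.71, and Mmp8, from -0.42 to 1.08, and Mmp8 was at 0.27 under limma-voom and at 0.20 with the replicate block. The cause was not tested. With 0 to 5 counts of Cxcl2 and Cxcl3 per control library, depth limits their folds and ratios.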
